A study of Mus musculus with 36 samples.

Results

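The transcripts of 4 Notch ligands (Dll1, Dll4, Jag1 and Jag2) and 3 Notch receptors (Notch1, Notch2 and Notch3) were followed in mouse duodenal organoids. These 7 genes were chosen by name, as ligands and receptors of the pathway, from the 34197 genes of the count table, and all 7 were found in it. The choice was made with earlier results of these data known. Of the 7, 6 had enough counts to be tested and Notch1 did not. In the main test, edgeR's quasi-likelihood test adjusted over all tested genes, none of the 6 changed past the threshold with any DAPT treatment or with duration. The smallest unadjusted p-values were those of Dll4 and Jag2. Dll4 averaged 61.1 CPM (molecules counted, scaled to the normalized library total) under 90 min pulses and 42.0 CPM in DMSO. Jag2 averaged 67.6 CPM at 72 h and 44.9 CPM at 24 h.

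Organoids are cultures grown from intestinal crypts. They came from the duodenum of C57BL/6 mice, male or virgin female and older than 8 weeks, with no genetic change named in the labels, and were kept in medium with EGF, Noggin and R-Spondin 1. They were loaded into a microfluidic chip and given pulses of DAPT, an inhibitor of the gamma-secretase enzyme that cuts Notch receptors, or the solvent DMSO. The pulse period was 90, 130 or 170 min, and each treatment ran for 24, 48 or 72 h with 3 libraries per combination, which gave 9 libraries per treatment, 12 per duration and 36 in all. The concentration of DAPT differed with the period, at 1.38 µM for 90 min, 2 µM for 130 min and 2.6 µM for 170 min, for which the labels also name 2 µM. Period and dose therefore cannot be told apart. The last passage was 3 days before the runs of 24 h, 2 days before those of 48 h and 1 day before those of 72 h, so duration and time since passage cannot be told apart either. The labels do not say whether DMSO was given in pulses, nor whether replicates are separate cultures or animals. The p-values thus measure only how far these samples spread, which may be technical. Each sample held 20 to 50 whole organoids of all cell types, and in such bulk samples fewer cells of a type and less RNA per cell cannot be told apart.

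Notch signalling runs between touching cells. Delta-like and Jagged ligands on one cell bind Notch receptors on its neighbour, ADAM10 and then gamma-secretase cut the receptor, and its intracellular part joins RBPJ in the nucleus to switch on genes such as Hes1. In the crypt Notch1 and Notch2 keep progenitors from taking a secretory fate, and Dll1 and Dll4 are the ligands shown there to do so together. Secretory progenitors and Paneth cells carry Delta-like ligands, and DAPT is widely used to push progenitors toward secretory fates.

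Library totals ran from 482741 to 1447330 counts, with a median of 958749. Depth differed between treatments. The mean total was 859263 in DMSO, 1058610 under 90 min, 855825 under 130 min and 1093670 under 170 min pulses. The organoids had the marker profile of epithelium: the 10 epithelial markers, led by Epcam, Krt19 and Krt18, summed to between 2314 and 3339 CPM. Notch3 is best known from mural cells and Notch4 from endothelium, where Dll4 is also made. Markers of mural and smooth muscle cells (11 genes led by Acta2, Tagln and Pdgfrb) summed to between 0 and 7.07 CPM, and none passed the count filter. Endothelial markers summed to between 13.9 and 65.7 CPM, of which 1 gene, Esam, passed the filter. Fibroblast markers summed to between 1.64 and 42.4 CPM, immune markers to between 2.84 and 22.3 CPM and markers of neurons and glia to between 5.03 and 27.0 CPM.

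The 250 bases before the annotated start were compared between these genes, as a description of letters. They are given for Dll4 and Jag2, the members with the smallest p-values, and for Dll1, the other Delta-like ligand. Each is read 5′ to 3′ on the gene's strand from the RefSeq promoter table (GRCm38.p6), which held all 7 members. Windows were searched on both strands for CANNTG, the E-box bound by basic helix-loop-helix factors such as Atoh1, CACNAG, the N-box bound by Hes proteins, and TGGGAA, the core of the site bound by RBPJ. Capitals mark the matches.
Dll1: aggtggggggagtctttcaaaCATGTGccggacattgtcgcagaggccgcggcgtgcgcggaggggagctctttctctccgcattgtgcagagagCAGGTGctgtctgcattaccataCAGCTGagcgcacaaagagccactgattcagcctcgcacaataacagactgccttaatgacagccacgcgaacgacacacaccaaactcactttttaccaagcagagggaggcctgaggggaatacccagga
Dll4: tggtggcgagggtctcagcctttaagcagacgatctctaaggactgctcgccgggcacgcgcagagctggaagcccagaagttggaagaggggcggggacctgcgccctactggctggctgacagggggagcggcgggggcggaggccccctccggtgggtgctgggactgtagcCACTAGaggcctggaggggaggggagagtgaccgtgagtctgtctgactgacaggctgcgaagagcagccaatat
Jag2: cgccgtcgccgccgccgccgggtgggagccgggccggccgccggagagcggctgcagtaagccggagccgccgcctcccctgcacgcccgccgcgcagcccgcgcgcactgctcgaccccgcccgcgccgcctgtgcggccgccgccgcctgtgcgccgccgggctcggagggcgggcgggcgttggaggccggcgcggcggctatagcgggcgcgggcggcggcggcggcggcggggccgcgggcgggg
The windows lie at chr17:15376933-15377182 on the minus strand for Dll1, chr2:119325534-119325783 on the plus strand for Dll4 and chr12:112929496-112929745 on the minus strand for Jag2. Dll1 had 3 E-boxes and no N-box, and the table lists 2 starts for it, of which the outer was used. Dll4 had 1 N-box and no E-box, and Jag2 had none of the motifs. The share of G and C was 56% in Dll1, 65.6% in Dll4 and 87.2% in Jag2. Over the 7 members, 2 had an E-box, 4 an N-box and 0 the RBPJ core. Of 27018 windows of the same length in the table, 66.1% held an E-box, 36.8% an N-box and 21.5% the RBPJ core. A match is a description of letters and not of binding.

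How many molecules were counted decided which members could be tested. The filter required about 10.43 CPM in at least 3 libraries, with CPM here taken over the plain library total. Notch1 gave 171 counts in all 36 libraries, with 1 to 10 per library, and reached that level in 0 libraries, so it was too low to test. Notch3 gave 313 counts, with 1 to 18 per library, and reached it in 11 libraries, so it was tested with little information. The other members reached it in 36 of 36 libraries, with 1806 counts for Dll4, 1819 for Jag2, 2020 for Dll1, 2730 for Jag1 and 3867 for Notch2. Of the 11462 genes tested, 73.4% had a lower CPM than Notch2, 44.5% had lower than Dll4 and 7.12% had lower than Notch3.

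Averaged over the 36 libraries, Notch2 was highest at 112.5 ± 15.9 CPM (SD), followed by Jag1 at 78.9 ± 19.6, Dll1 at 57.5 ± 11.5, Jag2 at 52.8 ± 17.7, Dll4 at 51.0 ± 12.1, Notch3 at 8.92 ± 4.77 and Notch1 at 4.90 ± 2.17 CPM. Dll1, Jag2 and Dll4 lay within 1 SD of each other. Sort-seq counts come from the 3′ end of each transcript and were not divided by length, so the order holds for counted molecules only. Between libraries of the same group the coefficient of variation was 14.97% for Notch2, 18.9% for Dll1, 21.0% for Dll4, 23.7% for Jag1 and 27.1% for Jag2. Counting error alone would give 9.76%, 13.9%, 14.8%, 11.7% and 14.7% in the same order. For Notch1 the value was 40.7% with 49.0% from counting, and for Notch3 51.4% with 38.1%. Notch1 thus spread no more than counting error gives.

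**Figure D1:**
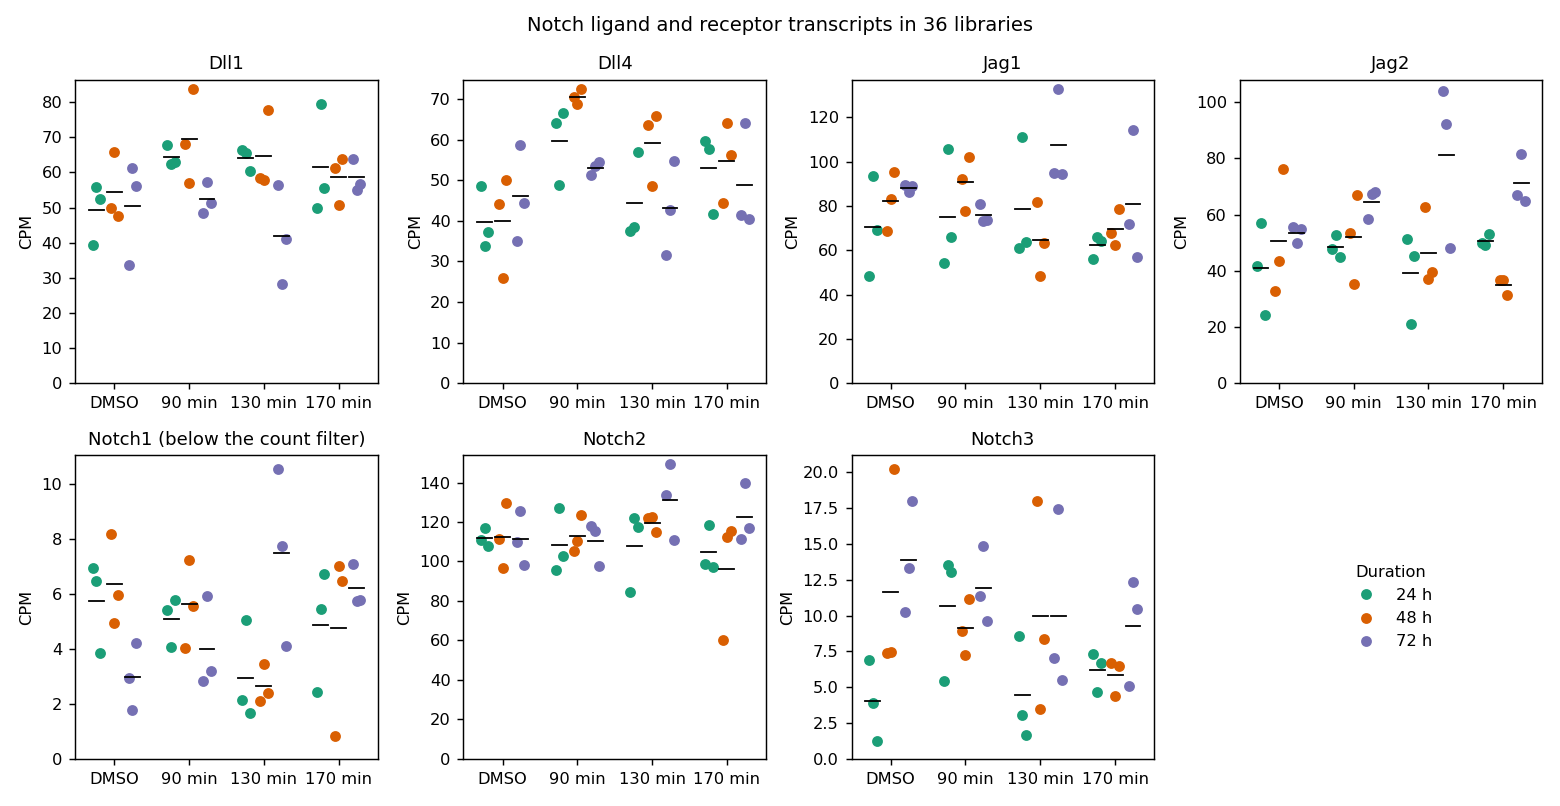
Level of each ligand and receptor in CPM (y axis, from 0, with a different scale in each panel) by treatment (x axis); each point is a library, coloured by duration, and each black line is the mean of 3 libraries. The Dll4 points under 90 min pulses lie between 48.7 and 72.4 CPM and those in DMSO between 26.0 and 58.7 CPM.

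The first question was whether pulses of DAPT at any period changed the ligands. In edgeR's quasi-likelihood test, averaged over the 3 durations with Benjamini-Hochberg adjustment over all tested genes, 0 of the 6 tested members passed for 90 min pulses against DMSO (background 0% of 11462 genes), with 1 at an unadjusted p under 0.05. The count was also 0 for 130 min (background 0%), with 0 at an unadjusted p under 0.05, and 0 for 170 min (background 0%), with 1. DESeq2 called 0 members in each of these comparisons. The unadjusted p was under 0.05 for 7.92%, 5.49% and 8.64% of all tested genes at 90, 130 and 170 min. The 3 comparisons share the same DMSO libraries. The median change of the members was 0.22 (log2) at 90 min, 0.09 at 130 min and 0.01 at 170 min, beside medians of all tested genes of 0.02, 0.00 and 0.01.

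Dll4, a Delta-like ligand of crypt secretory cells, gave the largest difference relative to its error. In DMSO its levels were 48.5, 33.7 and 37.2 CPM at 24 h, 44.2, 26.0 and 50.0 CPM at 48 h and 35.1, 58.7 and 44.4 CPM at 72 h. Under 90 min pulses they were 64.1, 48.7 and 66.6 CPM at 24 h, 70.5, 68.8 and 72.4 CPM at 48 h and 51.2, 53.4 and 54.5 CPM at 72 h. All 9 libraries with 90 min pulses exceeded the DMSO mean for the same duration, although the ranges of the treatments overlapped. The fold was 1.45 (95% interval 1.197 to 1.77), a log2 change of 0.54 (SE 0.14), with an unadjusted p of 0.00035, the 6th smallest of all tested genes, and an adjusted p of 0.543. Dll4 was therefore not called.

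The Dll4 estimates at single durations were as follows. At 24 h the log2 change with 90 min pulses was 0.64 (SE 0.25) and at 48 h it was 0.80 (SE 0.23), and at both times the 3 pulsed libraries all lay above the 3 DMSO libraries. At 72 h it was 0.18 (SE 0.23) and the ranges overlapped. Of all tested genes 0% were called at each of these durations. How many of all tested genes separated in this way was not counted. Such separations, here and for the other members below, are therefore descriptions only. Whether the change differed with duration did not pass either, since the treatment by duration interaction of Dll4 had an adjusted p of 1.00.

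Averaged over durations, Dll4 under the longer periods had means between those of DMSO and 90 min pulses, at 48.9 CPM for 130 min and 52.2 CPM for 170 min. At 72 h the 130 min mean of 43.1 CPM was below that of DMSO, 46.1 CPM. Under 130 min pulses its levels were 37.5, 38.4 and 57.0 CPM at 24 h, 63.6, 48.5 and 65.7 CPM at 48 h and 31.7, 42.6 and 54.9 CPM at 72 h. Under 170 min pulses they were 59.7, 57.6 and 41.6 CPM at 24 h, 44.4, 64.0 and 56.2 CPM at 48 h and 41.5, 64.1 and 40.5 CPM at 72 h. Against DMSO the log2 change was 0.20 (SE 0.14, adjusted p = 0.963 in edgeR) at 130 min, with 5 of 9 libraries above the same-duration DMSO mean. It was 0.31 (SE 0.14, adjusted p = 0.544 in edgeR) at 170 min, with 7 of 9 libraries above.

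Dll1, the other Delta-like ligand, averaged 51.3 ± 10.1 CPM in DMSO, 62.1 ± 10.5 under 90 min, 56.9 ± 14.5 under 130 min and 59.6 ± 8.96 under 170 min pulses (SD, n = 9). In DMSO its levels were 39.3, 55.8 and 52.5 CPM at 24 h, 49.9, 65.7 and 47.6 CPM at 48 h and 33.7, 61.4 and 56.0 CPM at 72 h. Under 90 min pulses they were 67.7, 62.3 and 62.9 CPM at 24 h, 68.1, 57.1 and 83.6 CPM at 48 h and 48.4, 57.3 and 51.3 CPM at 72 h. At 24 h the ranges did not overlap, and at 48 and 72 h they did. The log2 change over all durations was 0.25 (SE 0.12) at 90 min, with an unadjusted p of 0.051 and an adjusted p of 0.632 in edgeR, and 8 of 9 libraries exceeded the DMSO mean for the same duration.

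With 130 min pulses Dll1 differed from DMSO by 0.09 (SE 0.13) on the log2 scale, and with 170 min pulses by 0.20 (SE 0.12). At 130 min and 24 h its 3 libraries, at 66.4, 65.7 and 60.4 CPM, lay above all DMSO libraries of that time. At 72 h they were 56.3, 28.1 and 41.2 CPM and overlapped with DMSO, with a log2 change of -0.35 (SE 0.23). Without replicate 2 of the 130 min group it was -0.11, and without replicate 2 of every group, DMSO included, it was 0.08.

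The Jagged ligands act in boundary formation and vessel walls in other tissues. Jag1 averaged 80.3 ± 15.2 CPM in DMSO, 80.7 ± 16.8 under 90 min, 83.5 ± 27.3 under 130 min and 70.9 ± 17.7 under 170 min pulses (SD, n = 9). Its log2 changes were -0.02 (SE 0.14), 0.04 (SE 0.15) and -0.18 (SE 0.15) in the same order. With 170 min pulses 1 of 9 libraries exceeded the DMSO mean for the same duration, and the 95% interval of the fold ran from 0.717 to 1.09.

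Single libraries spread widely in Jag1. At 24 h DMSO gave 48.5, 93.4 and 69.2 CPM, and replicate 2 was also the highest under 90 min pulses (54.2, 105.6 and 65.8 CPM), 130 min pulses (61.1, 111.1 and 63.7 CPM) and 170 min pulses (56.0, 66.2 and 64.4 CPM). The 130 min libraries of 72 h, at 95.01, 132.8 and 94.6 CPM, all lay above the DMSO libraries, at 89.3, 86.3 and 88.8 CPM. The log2 change was 0.31 (SE 0.24, adjusted p = 0.708 in edgeR, background 0% of genes called). The 90 min libraries of 72 h, at 81.1, 73.2 and 73.8 CPM, all lay below the same DMSO libraries. Their log2 change was -0.22 (SE 0.25).

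Jag2 averaged 48.4 ± 15.2 CPM in DMSO, 55.0 ± 11.3 under 90 min, 55.6 ± 26.6 under 130 min and 52.2 ± 16.4 under 170 min pulses (SD, n = 9). The log2 changes were 0.19 (SE 0.18), 0.14 (SE 0.18) and 0.08 (SE 0.18), and every range overlapped that of DMSO. At 72 h the 90 min libraries (58.3, 67.2 and 68.2 CPM) and the 170 min libraries (66.9, 81.4 and 64.9 CPM) all lay above the DMSO libraries (55.6, 49.8 and 55.0 CPM). The 130 min libraries of that time held 103.8, 92.1 and 48.0 CPM, so replicate 3 was below DMSO and the other two were the highest of all 36 libraries. These libraries also differed from each other in cell type markers. Enteroendocrine markers summed to 218 and 276 CPM in replicates 1 and 2 and to 1771 CPM in replicate 3, and Paneth markers to 1742, 1935 and 4785 CPM. Low sums were not particular to them. Replicates 1 and 2 of 170 min at 72 h had enteroendocrine sums of 275 and 291 CPM and Paneth sums of 1623 and 1568 CPM. Replicate 1 of 130 min at 24 h had an enteroendocrine sum of 252 CPM. The part of these markers in the Jag2 levels was not tested. None of these differences passed (background 0%), with log2 changes of 0.29 (SE 0.29), 0.60 (SE 0.29) and 0.42 (SE 0.29) at 90, 130 and 170 min.

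Among the receptors, Notch2 was the steadiest member. It averaged 111.8 ± 10.98 CPM in DMSO, 110.7 ± 11.2 under 90 min, 119.7 ± 17.4 under 130 min and 107.8 ± 21.7 under 170 min pulses (SD, n = 9). The log2 changes were -0.03 (SE 0.10), 0.09 (SE 0.10) and -0.06 (SE 0.10). The 95% intervals of the fold were 0.851 to 1.13, 0.922 to 1.23 and 0.830 to 1.104. In DMSO Notch2 held 111.0, 116.8 and 107.6 CPM at 24 h, 111.3, 96.6 and 129.7 CPM at 48 h and 109.8, 125.4 and 98.3 CPM at 72 h. One library stood low: replicate 1 of 170 min pulses at 48 h held 60.3 CPM beside 112.2 and 115.6 CPM in the others. Without it the log2 change at that time was 0.02 in place of -0.24 (SE 0.17).

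Notch3, known mainly from vessel walls, averaged 9.86 ± 6.28 CPM in DMSO, 10.6 ± 3.07 under 90 min, 8.12 ± 5.94 under 130 min and 7.12 ± 2.66 under 170 min pulses (SD, n = 9). The log2 changes were 0.32 (SE 0.33), -0.08 (SE 0.38) and -0.26 (SE 0.36), with fold intervals as wide as 0.499 to 1.39 at 170 min. At 24 h its 90 min libraries held 6, 10 and 18 counts (5.4, 13.5 and 13.02 CPM) and the DMSO libraries 3, 3 and 1 counts (6.9, 3.9 and 1.3 CPM). The log2 change of 1.51 (SE 0.67) there had an adjusted p of 0.487 in edgeR. At 48 h the 170 min libraries (4.38 to 6.70 CPM, 5 to 8 counts) all lay below those of DMSO (7.36 to 20.2 CPM, 6 to 17 counts). The log2 change at that time was -0.96 (SE 0.56).

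Notch1, the receptor of crypt progenitors that failed the filter, gave summed counts of 38 in DMSO, 48 under 90 min, 32 under 130 min and 53 under 170 min pulses. Its means were 5.03, 4.90, 4.36 and 5.28 CPM. When every gene with at least 1 count was kept, its log2 changes from DMSO were 0.06 (SE 0.39), -0.26 (SE 0.44) and 0.17 (SE 0.40) at 90, 130 and 170 min, with adjusted p-values of 1.00 in edgeR. Differences in Notch1 were not detectable at this depth, which is not evidence that its level was constant.

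**Figure D2:**
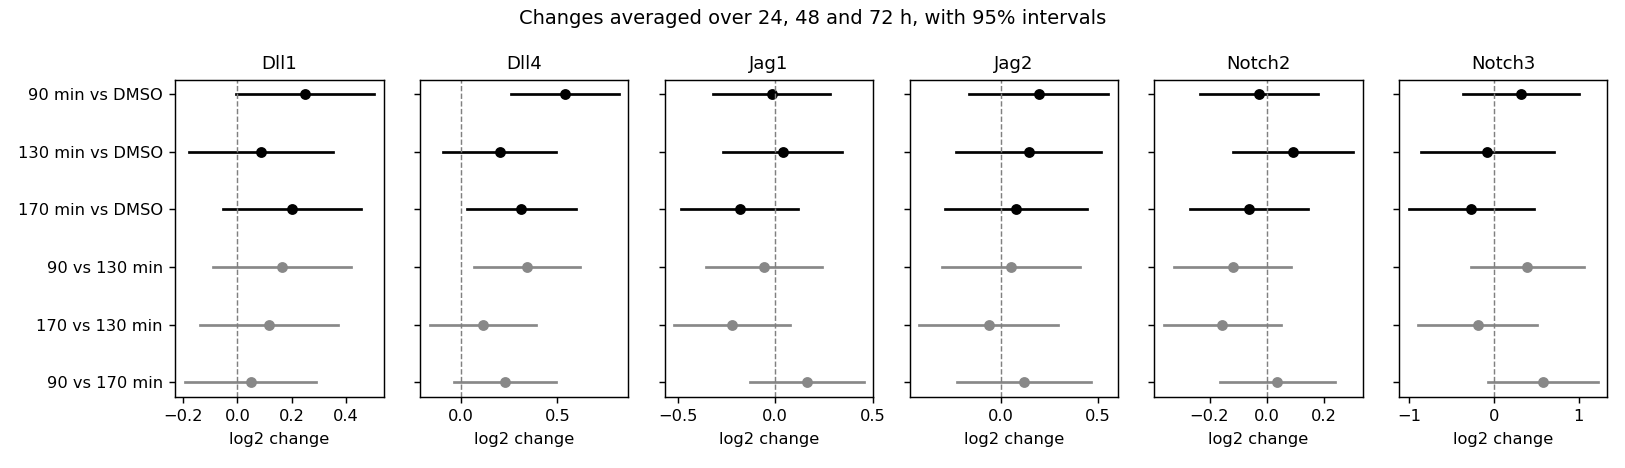
Log2 change of the 6 tested members (x axis, with a different scale in each panel) in 6 comparisons of treatments averaged over 24, 48 and 72 h; points are estimates from edgeR and bars 95% intervals, black against DMSO and grey between periods. The Dll4 interval at 90 min against DMSO runs from 0.26 to 0.82 and no member passed after adjustment.

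The second question was whether the pulse periods differed from one another. In edgeR 0 of 6 members passed for 90 against 130 min (background 0%), 0 for 170 against 130 min (background 0%) and 0 for 90 against 170 min (background 0%). At an unadjusted p under 0.05 the counts were 1, 0 and 0 members, beside 11.8%, 12% and 1.3% of all tested genes, and DESeq2 called 0 members in each. The 1 member was Dll4, higher by 0.34 (SE 0.13) with 90 than with 130 min pulses, with an adjusted p of 0.365 and 9 of 9 libraries above the 130 min mean of their duration. Against 170 min pulses Dll4 was higher by 0.23 (SE 0.13), with 8 of 9 libraries above. Notch3 was higher by 0.58 (SE 0.31) with 90 than with 170 min pulses, again in 8 of 9 libraries, with an adjusted p of 1.00.

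Same-numbered libraries of the 130 and 170 min groups varied together, with all 9 correlations of their deviations between 0.24 and 0.61. A fit with those pairs as blocks, and with the numbers of DMSO and 90 min as blocks, changed no call of a member. It was run only for 90 min against DMSO and for 170 against 130 min, and not between durations. In it the change of Dll4 with 90 min pulses against DMSO was 0.54 with an adjusted p of 0.154.

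At single durations, 0 of 6 members passed in any of the 9 comparisons of a period with DMSO (background 0% in each) in edgeR, and DESeq2 called 0. At an unadjusted p under 0.05 were Dll4 and Notch3 at 90 min and 24 h, Dll4 at 90 min and 48 h, Dll4 at 130 min and 48 h with a log2 change of 0.55 (SE 0.23), and Jag2 at 130 min and 72 h. The shares of all tested genes at that level were 9.69% at 90 min and 24 h, 1.53% at 90 min and 48 h, 2.47% at 130 min and 48 h and 10.3% at 130 min and 72 h. For the treatment by duration interaction 0 of 6 members passed (background 0%), 0 had an unadjusted p under 0.05, and DESeq2 called 0.

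**Figure D3:**
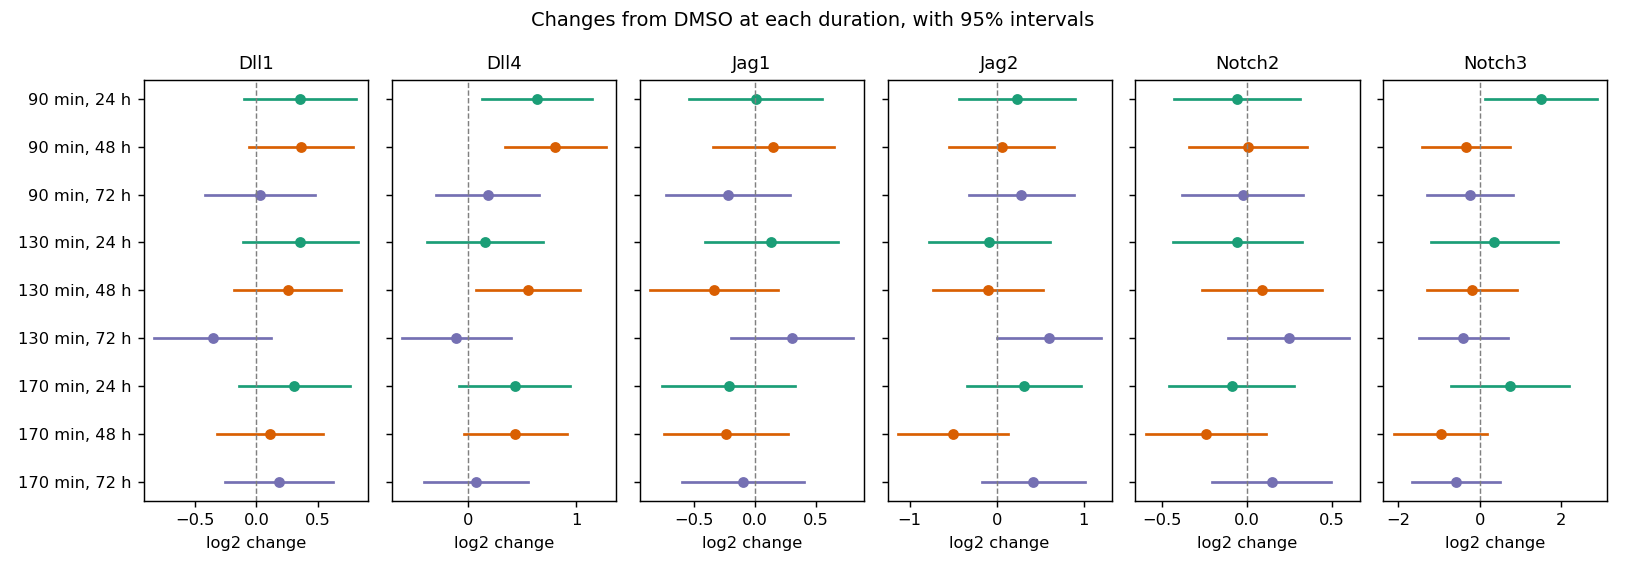
Log2 change from DMSO of the 6 tested members (x axis, with a different scale in each panel) for each pulse period and duration; points are estimates from edgeR and bars 95% intervals, coloured by duration. For Dll4 with 90 min pulses the points stand at 0.64, 0.80 and 0.18 at 24, 48 and 72 h.

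The third comparison was between durations, averaged over treatments. For 72 against 24 h, 0 of 6 members passed in edgeR (background 0.157%, 18 of 11462 genes, with 0.0523% called higher and 0.105% called lower), 4 had an unadjusted p under 0.05, and DESeq2 called 1, Jag2. For 72 against 48 h the counts were 0 (background 0%) and 2, with 0 in DESeq2, and for 48 against 24 h they were 0 (background 0%) and 0, with 0 in DESeq2. The unadjusted p was under 0.05 for 14.8%, 12.6% and 9.63% of all tested genes. The members had a median change of 0.22 (log2) between 24 and 72 h, beside 0.00 for all genes.

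Jag2 was the member closest to the threshold. Its mean was 44.9 ± 11.1 CPM at 24 h, 46.0 ± 15.02 at 48 h and 67.6 ± 17.1 at 72 h (SD, n = 12). From 24 to 72 h the log2 change was 0.59 (SE 0.15), a fold of 1.51 (95% interval 1.22 to 1.87), with an adjusted p of 0.0715 in edgeR. All 12 libraries of 72 h lay above the 24 h mean of their treatment, although the ranges overlapped. At 24 h Jag2 held 41.6, 57.1 and 24.3 CPM in DMSO, 47.8, 52.8 and 44.9 CPM with 90 min, 51.4, 21.2 and 45.3 CPM with 130 min and 49.9, 49.0 and 53.0 CPM with 170 min pulses. The 72 h libraries, given above, ran from 48.0 to 103.8 CPM.

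The call on Jag2 depended on the tool and on single libraries. Its adjusted p was 0.0344 in DESeq2 and 1.04e-04 in edgeR with every gene kept. It was 0.0371 without replicate 1 of 130 min at 24 h, 0.0222 without replicate 3 of 130 min at 72 h and 0.0292 without replicate 2 of DMSO at 24 h. Without replicate 2 of 130 and of 170 min pulses, which had the lowest enterocyte marker sums of the 72 h libraries at 1396 and 2110 CPM, the log2 change was 0.53 with an adjusted p of 0.289. From 48 to 72 h Jag2 was higher by 0.56 (SE 0.15, adjusted p = 0.195 in edgeR), in 11 of 12 libraries. Replicate 3 of DMSO at 48 h also had a low enterocyte sum, at 1430 CPM, and held the highest Jag2 (76.1 CPM) of the DMSO libraries and the highest Notch3 (20.2 CPM) of all 36. Without it the change of Jag2 from 48 to 72 h was 0.66, with an adjusted p of 0.0589. Without replicate 3 of every group that adjusted p was 0.0346.

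Notch3 averaged 6.34 CPM at 24 h, 9.15 CPM after 48 h and 11.3 CPM after 72 h. Its change from 24 to 72 h was 0.96 (SE 0.30, adjusted p = 0.131 in edgeR), with 10 of 12 libraries above the 24 h mean of their treatment. Without replicate 1 of 130 min at 24 h it was 1.18 with an adjusted p of 0.0494. Jag1 differed by 0.29 (SE 0.13, adjusted p = 0.272 in edgeR), with 9 of 12 libraries above, and averaged 71.6 CPM at 24 h and 88.2 CPM at 72 h. Dll1 went the other way: it averaged 59.8 CPM at 24 h, 61.8 CPM at 48 h and 50.8 CPM at 72 h, with a log2 change of -0.26 (SE 0.11, adjusted p = 0.261 in edgeR) from 24 to 72 h and 3 of 12 libraries above. Dll4 differed by 0.00 (SE 0.12) and Notch2 by 0.14 (SE 0.09).

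Cell type markers also differed between these times. From 24 to 72 h 14 of 14 tested enterocyte markers were lower (median -0.50, with 1 gene called, the apolipoprotein gene Apoa4, at -1.82, SE 0.38, adjusted p = 0.0480 in edgeR). Of the enteroendocrine markers 12 of 13 were lower (median -1.12), as were 10 of 12 Paneth markers (median -0.25), with 0 called in either list. As sums, the medians at 24 and 72 h were 4438 and 3310 CPM for enterocyte markers and 936 and 636 CPM for enteroendocrine markers. For Paneth markers they were 3089 and 2914 CPM. By the same measure goblet markers, led by Tff3, Zg16 and Spink4, went the other way, with medians of 3792 and 4283 CPM. The ranges of the sums overlapped in each list. The part of all these markers in the differences of Jag2, Notch3, Jag1 and Dll1 was not tested. For the pulses, secretory progenitor markers had 9, 11 and 9 of 12 genes higher than in DMSO at 90, 130 and 170 min, with medians of 0.17, 0.12 and 0.12 and 0 called. Their part in the Dll4 difference was not tested.

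**Figure D4:**
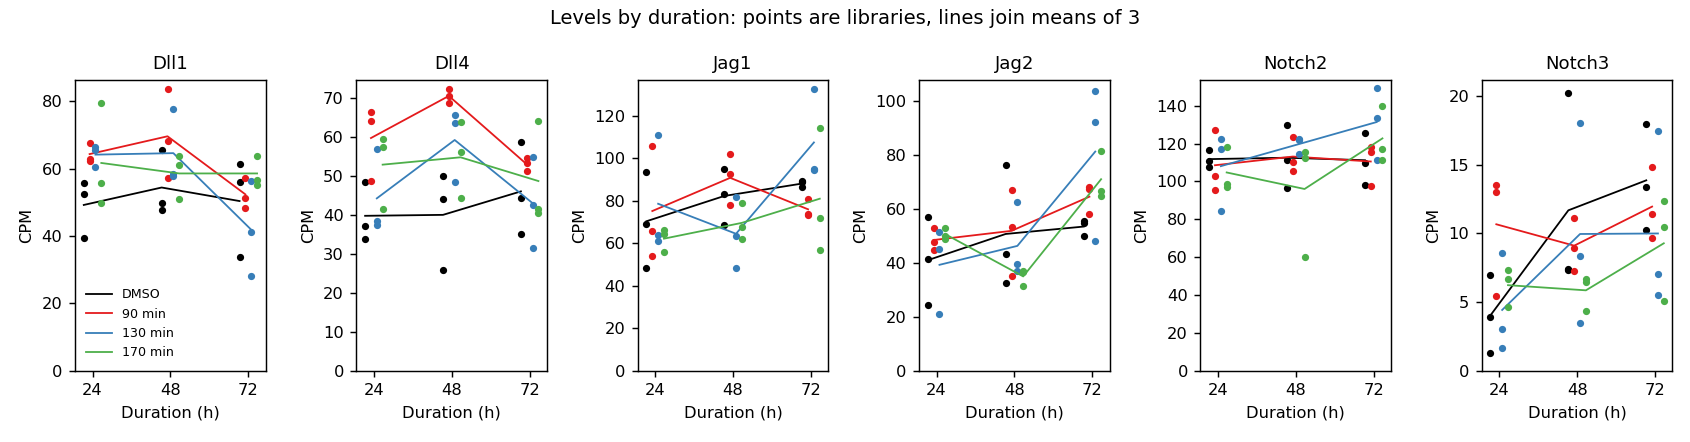
Level in CPM (y axis, from 0, with a different scale in each panel) of the 6 tested members against duration in hours (x axis); points are libraries, coloured by treatment and shifted sideways for clarity, and lines join the means of 3. The means of Jag2 stand between 53.5 and 81.3 CPM at 72 h and between 39.3 and 50.7 CPM at 24 h.

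Ligands and receptors were then compared across the 36 libraries as log2(CPM + 1), in 15 pairs of the tested members. Jag2 and Notch3 had Pearson's r = 0.61 (permutation p = 7.00e-05, adjusted p = 0.00105 over the pairs) and Spearman's rho = 0.59 (permutation p = 1.60e-04, adjusted p = 0.00240). Without the 2 libraries farthest from the median of Jag2 r was 0.47. Within the 24 h libraries r was 0.56, within those of 48 h 0.82 and within those of 72 h 0.05, so the relation was not seen at 72 h. Each of these values rests on 12 libraries, and Notch3 had 3 to 17 counts per library at 48 h. Whether r differed between durations was not tested. With group means subtracted r was 0.58, and a permutation within groups gave p = 0.0190 and an adjusted p of 0.142, so the relation did not pass there.

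Jag1 and Notch2 had r = 0.46 (permutation p = 0.00390, adjusted p = 0.0292) and rho = 0.50 (permutation p = 0.00196, adjusted p = 0.0147). Without the 2 libraries farthest from the median of Jag1 r was 0.45, and by duration it was 0.63, 0.14 and 0.61. With group means subtracted r was 0.44, with p = 0.0102 in a permutation within groups and an adjusted p of 0.142. Dll1 and Dll4 had r = 0.26 (permutation p = 0.123, adjusted p = 0.307) and rho = 0.27 (permutation p = 0.108, adjusted p = 0.269). Of the other pairs, only Jag1 with Jag2 passed by 1 of the measures, with rho = 0.43 (permutation p = 0.00966, adjusted p = 0.0483) and r = 0.35 (permutation p = 0.0341, adjusted p = 0.128).

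**Figure D5:**
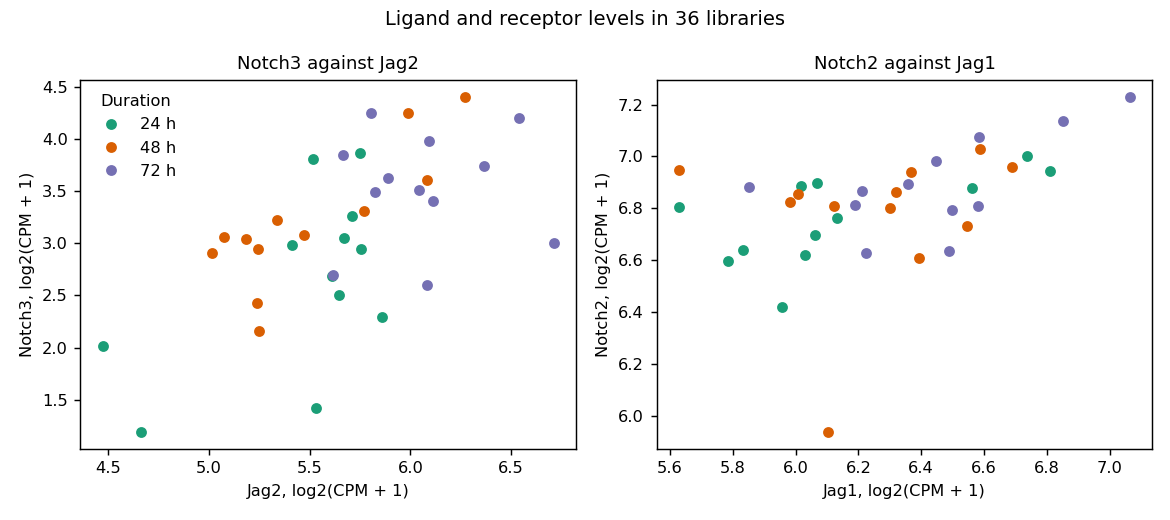
Level of Notch3 against Jag2 and of Notch2 against Jag1 in 36 libraries, both axes as log2(CPM + 1), neither starting at 0; points are libraries coloured by duration. At 48 h Notch3 is higher where Jag2 is higher (r = 0.82), and at 72 h it is not (r = 0.05), with 12 libraries at each time. The difference between these times was not tested.

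The genes whose levels were most like those of a member over the 36 libraries were taken by Pearson's r of log2(CPM + 1), as a description. For Dll4 they were Harbi1 (0.68), Pomgnt2, Fam117a, Ern2 and Peg13. Ern2 is a stress sensor of the endoplasmic reticulum found in mucus-secreting cells. For Dll1 they were Chst4 (0.67), Sesn1, mt-Tq, Gm2788 and Zhx3. For Jag1 they were Cav2 (0.79), Ano1, Paqr8, Pparg and Clcf1, and for Jag2 they included Hsd17b14 (0.79), Ptp4a3, Atxn10 and Hdac7. For Notch2 they were Sp2 (0.71), Etl4, Zfhx3, Slc4a11 and Pam. Spearman's rho was lower for some, at 0.46 for Sp2 with Notch2 and 0.48 for Chst4 with Dll1. It was 0.64 for Harbi1 with Dll4, 0.75 for Hsd17b14 with Jag2 and 0.82 for Cav2 with Jag1. Gm2788, Peg13 and mt-Tq averaged only 6.45, 8.47 and 9.29 CPM. These genes are the highest among 11462 tested genes, and how high an r chance would give in such a search was not tested.

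The rest of the pathway gave the setting. The other ligands and receptors (8 genes, with Notch4 at 168, Dner at 101 and Dll3 at 89 counts in all) had 0 members that passed the filter. Among 10 tested processing enzymes, 12 modulators, 9 genes of the nuclear complex and 4 targets, edgeR called 0 in any of the 19 comparisons. At an unadjusted p under 0.05 were 3, 0 and 3 of these 35 genes for 90, 130 and 170 min against DMSO. The shares of all tested genes at that level were 7.92%, 5.49% and 8.64%, so these counts do not set the pathway apart. For 90 min pulses against DMSO 8 of 10 processing enzymes and 9 of 9 nuclear genes were higher, with medians of 0.09 and 0.13. The median of all tested genes was 0.02. Summed CPM did not rise in every list. Its medians in DMSO and under 90 min pulses were 841 and 815 for processing enzymes and 497 and 551 for nuclear genes. They were 1375 and 1274 for modulators and 717 and 653 for targets, and the ranges overlapped in each list. Adam10, which makes the first cut in the receptor, had a log2 change of -0.23 (SE 0.07, adjusted p = 0.627 in edgeR) with 90 min pulses against DMSO. Ncstn, a subunit of gamma-secretase, had -0.22 (SE 0.08, adjusted p = 0.537 in edgeR) with 170 min pulses, and Rbpj had 0.17 (SE 0.09, adjusted p = 0.591 in edgeR).

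The readouts of the pathway stood as follows. Hes1, the direct target, averaged 347 ± 53.1 CPM in DMSO, 298 ± 30.5 under 90 min, 351 ± 25.7 under 130 min and 336 ± 37.5 under 170 min pulses (SD, n = 9). Its change with 90 min pulses was -0.21 (SE 0.08, adjusted p = 0.627 in edgeR), with 130 min pulses 0.02 (SE 0.08) and with 170 min pulses -0.04 (SE 0.08). At single durations the change of Hes1 with 90 min pulses was -0.44 (SE 0.13) at 24 h, -0.16 (SE 0.13) at 48 h and -0.04 (SE 0.13) at 72 h. None of these passed, nor did the treatment by duration interaction of Hes1. Atoh1, the factor that starts the secretory fate, averaged 91.8 ± 10.7 CPM in DMSO. Under 90, 130 and 170 min pulses it averaged 104.8 ± 14.1, 106.5 ± 31.9 and 97.7 ± 25.1 CPM. Its changes were 0.19 (SE 0.12), 0.19 (SE 0.12) and 0.07 (SE 0.12), and it did not pass either.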

How the data were processed

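Libraries of 36 organoid samples were made from polyadenylated RNA by Sort-seq, per the labels' protocols. The submitters' processing notes name STAR 2.7.8a and UMI-tools 1.1.1. The table the authors deposited holds whole-number counts of molecules for each gene symbol, with no sign of normalization. Its genome build, its annotation and how reads were assigned to genes: not given in the sources used here. Gene coordinates were left out, and promoter windows carry the build of their own table.

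All 36 columns were mapped to samples by name. Tests used edgeR 4.0.16 in R 4.3.3 with filterByExpr (11462 of 34197 genes kept, 22735 not tested), TMM, 12 group coefficients (24 residual degrees of freedom) and robust quasi-likelihood F tests, two-sided apart from the interaction, with Benjamini-Hochberg values over all tested genes and a threshold of 0.05, in 19 comparisons. CPM uses TMM library sizes. Standard errors follow from F, and 95% intervals from the t distribution. Tests were tried on simulated data. Correlations used 100000 permutations, two-sided.

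Alternatives were DESeq2 1.42.0, its size factors, no filter, a replicate block, library total as a covariate, fits on the compared groups and leaving out libraries. Deviations of same-numbered samples correlated above 0.1 in all 9 pairs of 130 with 170 min and in 23 of 54 pairs over all treatments. Pairs of DMSO with 90 min were all positive, at 0.14 to 0.50 at 24 and 48 h and at 0.101, 0.084 and 0.088 at 72 h. The members and lists were chosen with earlier results of these data known. All 7 members were named in every comparison, with up to 3 genes of each pathway list by smallest p, Hes1 and Atoh1, and the 5 genes most like each member with a median count of at least 20. One gene that this rule names is not reported here.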

Additional observations from a re-analysis of the deposited data

Results flagged for a closer look

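Among 28 sets of 9 libraries (a member in a treatment), 2 held a library far from the others, where chance gives about 1 in 20. Dll1 was at 79.4 CPM in replicate 2 of 170 min pulses at 24 h, and Jag1 was at 114.3 CPM in replicate 2 of 170 min pulses at 72 h.

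Each of the 7 members was looked at with each of the 3 pulse periods, over the 3 durations. In 5 cases all 3 pulsed libraries lay on one side of the DMSO mean at one duration and on the opposite side at another. How many such cases chance gives, or how many of all genes show them, was not counted. The differences in these cases were not tested pair by pair, and the treatment by duration interaction of each tested member had an adjusted p of 1.00 in edgeR. Jag1 with 130 min pulses differed from DMSO by -17.8 CPM at 48 h and 19.3 CPM at 72 h. Jag2 with 170 min pulses differed by 9.64 CPM at 24 h, -15.8 CPM at 48 h and 17.6 CPM at 72 h. Notch3 with 90 min pulses differed by 6.62 CPM at 24 h and -2.57 CPM at 48 h, and with 170 min pulses by 2.19 CPM at 24 h, -5.82 CPM at 48 h and -4.58 CPM at 72 h. Notch1, with 1 to 10 counts per library, differed with 130 min pulses by -2.80 CPM at 24 h, -3.70 CPM at 48 h and 4.50 CPM at 72 h.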

How the results depend on the processing

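Depth limits Notch1 and Notch3 most, and no alternative removed a call of a member, since none was called. Of 2454 member values under alternatives 152 changed sign, and 3 of these had a main value above its standard error; 8 values newly passed, all of Jag2 or Notch3 between durations. Dll1 with 130 min pulses at 72 h was 0.077 without replicate 2 (range over left-out libraries -0.80 to 0.077), Notch3 from 48 to 72 h was -0.18 without replicate 2 (-0.18 to 0.67), and Notch2 with 170 min pulses at 48 h was 0.018 without replicate 1 of that group (-0.48 to 0.018). Dll4 with 90 min pulses ranged from 0.46 to 0.61, with adjusted p-values from 0.144 to 1.00. With group means subtracted 0 relations between members passed, in place of 2. All 49 mean levels moved by under 1 SD when CPM used plain totals.

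Members called came to 1 for 72 against 24 h and 1 for 72 against 48 h without the filter, to 1 for 72 against 24 h in DESeq2, and, leaving out libraries, to 0 to 2 and 0 to 1 for these comparisons. Over all genes, calls without the filter were 1, 4 and 2 for 90, 130 and 170 min against DMSO, 6 for 90 and 7 for 170 against 130 min, 1 and 52 for 130 min at 24 and 72 h, 4, 2 and 1 for 170 min at 24, 48 and 72 h, 7 for 48 against 24 h, 304 for 72 against 24 h, 132 for 72 against 48 h and 15 for the interaction. The replicate block, with pairs of equal number, gave 3 for 130 min at 72 h, 105 for 72 against 24 h and 1 for 72 against 48 h. Fits on the compared groups gave 18 for 130 min at 72 h, 1 for 170 min at 72 h and 3 for 72 against 24 h. DESeq2 gave 7 for 130 min against DMSO, 19 for 90 and 32 for 170 against 130 min, 12 for 48 against 24 h, 102 for 72 against 24 h and 9 for 72 against 48 h. Blocks within DMSO with 90 min and 130 with 170 min, chosen after seeing the data, gave 1 for 90 min against DMSO. Without the 2 libraries of 72 h with the lowest enterocyte sums (a low library of DMSO at 48 h was kept), also chosen after seeing the data, the calls were 2 for 130 min against DMSO and 0 for 72 against 24 h, in place of 18. Leaving out libraries gave 0 to 152 for 72 against 24 h, 0 to 59 for 72 against 48 h, 0 to 4 for 130 min against DMSO, 0 to 1 for 130 min at 48 h, 0 to 2 for 130 min at 72 h, 0 to 1 for 170 min at 24 h, 0 to 1 for 170 against 130 min and 0 to 6 for 90 against 130 min. The cause of these changes was not tested.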
